A study of Mus musculus with 22 samples.

Results

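The genes described are 10 components of photoreceptor outer segment phagocytosis, chosen by name: the receptors Mertk, Tyro3, Itgav, Itgb5 and Cd36, the ligands Gas6, Pros1 and Mfge8, and Myo7a and Ezr, which act in the apical cytoskeleton. Mertk, Tyro3 and Itgav lie on mouse chromosome 2, Mfge8 and Myo7a on 7, Pros1 and Itgb5 on 16, Cd36 on 5, Gas6 on 8 and Ezr on 17 (GRCm38). All 10 were found among the 53801 genes of the bulk RNA-Seq tables and among the 19324 genes of the single-cell matrix. The choice rests on their known roles and on no threshold of a measured value. The study proposed that phagocytosis by the retinal pigment epithelium (RPE) is impaired in AdipoR1-/- mice. It drew this from genes of protein digestion and absorption that fell in the RPE. It also reported phagocytosis pathways, shared by retina and RPE, among genes that rose. The 10 genes, which its text does not name, were compared here between AdipoR1-/- (KO) and WT mice.

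Bulk RNA-Seq was made from the retina and the RPE of 30-day-old (P30) KO and WT mice, with 4 libraries per genotype and tissue. Both genotypes are labelled as strain C57BL/6J with no treatment given, and the study used males and females. The KO is constitutive, from the B6.129P2-Adipor1tm1Dgen/Mmnc line, which the study bred into pigmented and albino B6 backgrounds. For bulk libraries the retinas were lifted out, and RPE cells were then shaken off the eyecup and pelleted after choroid and sclera had been taken away. Single-cell RNA-Seq used, per the labels, dissociated retinas, 4 pooled in each of 6 libraries, which cover both genotypes at P19, P25 and P30 once. The study's text, unlike the labels, describes these cells as coming from the retina and the RPE. Total counts of the bulk libraries were between 20133143 and 38409496. Adipor1 itself fell in every KO library, from 374 to 479 CPM (the count of a gene scaled by its TMM-adjusted library total) in WT RPE to 139 to 152 CPM in KO RPE, and from 589 to 607 CPM in WT retina to 136 to 142 CPM in KO retina.

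The RPE is a single pigmented layer whose apical microvilli wrap the tips of rod and cone outer segments. Each day the photoreceptors shed the oldest membrane discs at these tips, and the RPE binds, engulfs and digests them. Binding runs through the integrin αvβ5, a dimer of the products of Itgav and Itgb5, which recognizes the bridging protein MFG-E8. Engulfment is triggered by the receptor tyrosine kinase MERTK, whose bridging ligands are GAS6 and protein S, the product of Pros1. Both kinds of ligand attach to phosphatidylserine exposed on the outer segment. Rats and mice without MERTK do not ingest outer segments and lose their photoreceptors.

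The RPE libraries were checked against 12 RPE marker genes. Their summed level was between 42067 and 63689 CPM in the 8 RPE libraries and between 624 and 720 CPM in the 8 retina libraries. All 12 were detected, although Best1, a chloride channel of the RPE, reached only 0.687 to 1.33 CPM in the RPE libraries. Rpe65, the retinoid isomerase, was between 3057 and 5357 CPM in WT and between 2345 and 2435 CPM in KO RPE. The RPE libraries also held RNA of other cells. The sum of 10 rod markers was 1090, 17574, 18240 and 1660 CPM in WT replicates 1 to 4 and 746, 4366, 6263 and 1177 CPM in KO replicates 1 to 4. WT replicate 2 stood apart, with the lowest sum of RPE markers (42067 CPM), and WT replicate 1 had the most RNA of fibroblast markers (2096 CPM, against 607 to 935 CPM in the other WT and 947 to 1797 CPM in the KO RPE libraries). Lens markers summed to 393 CPM in WT replicate 2 and to 804 CPM in WT replicate 4, against 19.8 to 42.2 CPM in the other RPE libraries. The 12 microglia markers summed to between 492 and 764 CPM in WT RPE and between 921 and 1030 CPM in KO RPE, and 10 of them rose in KO RPE. The same sum was 64.8 to 68.9 CPM in WT and 224 to 263 CPM in KO retina, where all 12 markers rose. In the RPE most of this sum was Csf1r, at 368 to 612 CPM in WT and 612 to 645 CPM in KO. C1qa, another of the 12, was at 8.34 to 14.5 CPM in WT and 41.2 to 58.8 CPM in KO RPE. The RPE sum therefore does not measure how much the other markers rose, nor compare microglial RNA between the tissues.

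In WT mice, the 10 genes were first compared between the RPE and the retina, in 1 fit whose scaling is shared by both tissues, so that its CPM differ somewhat from those scaled within a tissue. Every one of them differed, as did 84.6% of all genes tested (edgeR quasi-likelihood test, adjusted p below 0.05). Ezr, which encodes ezrin, the linker of microvillar actin to the membrane, was 115-fold higher in the RPE (1080.5 ± 188 CPM against 9.36 ± 1.47 CPM; SD, n = 4). Itgav was 24.2-fold and Mertk 23.1-fold higher in the RPE. Itgb5 was 6.06-fold, Tyro3 5.59-fold and Myo7a 5.10-fold higher. Smaller differences were found for the scavenger receptor gene Cd36 (2.24-fold), Pros1 (1.65-fold) and Gas6 (1.41-fold), all higher in the RPE. Mfge8 was the exception, with a 1.96-fold higher level in the retina (265 ± 19.1 CPM) than in the RPE (135 ± 31.8 CPM). Without TMM scaling, the differences of Gas6 (adjusted p = 0.13) and Pros1 (adjusted p = 0.075) no longer passed.

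Per kilobase of exon, the WT RPE level was highest for Ezr (296 ± 54.6 CPM per kb), followed by Gas6 (103 ± 26.7), Itgav (73.2 ± 20.97), Itgb5 (53.2 ± 8.12) and Mertk (45.9 ± 9.28 CPM per kb; SD, n = 4). The ranges of 1 SD overlapped between neighbors in this order from Gas6 down to Mertk. Myo7a (28.5 ± 2.21), Mfge8 (25.9 ± 5.88) and Tyro3 (20.5 ± 5.09 CPM per kb) formed a lower group in which neighbors also overlapped. Pros1 was at 3.73 ± 1.52 and Cd36 at 0.991 ± 0.311 CPM per kb. In WT retina the order was different. Gas6 (90.7 ± 9.53) and Mfge8 (63.0 ± 4.57) led, and Mertk, at 2.46 ± 0.515 CPM per kb, was second lowest, above Cd36 (0.546 ± 0.0707 CPM per kb). Thus Gas6 was near the top in both tissues, next to Mfge8 in the retina and to Ezr and Itgav in the RPE.

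**Figure D1:**
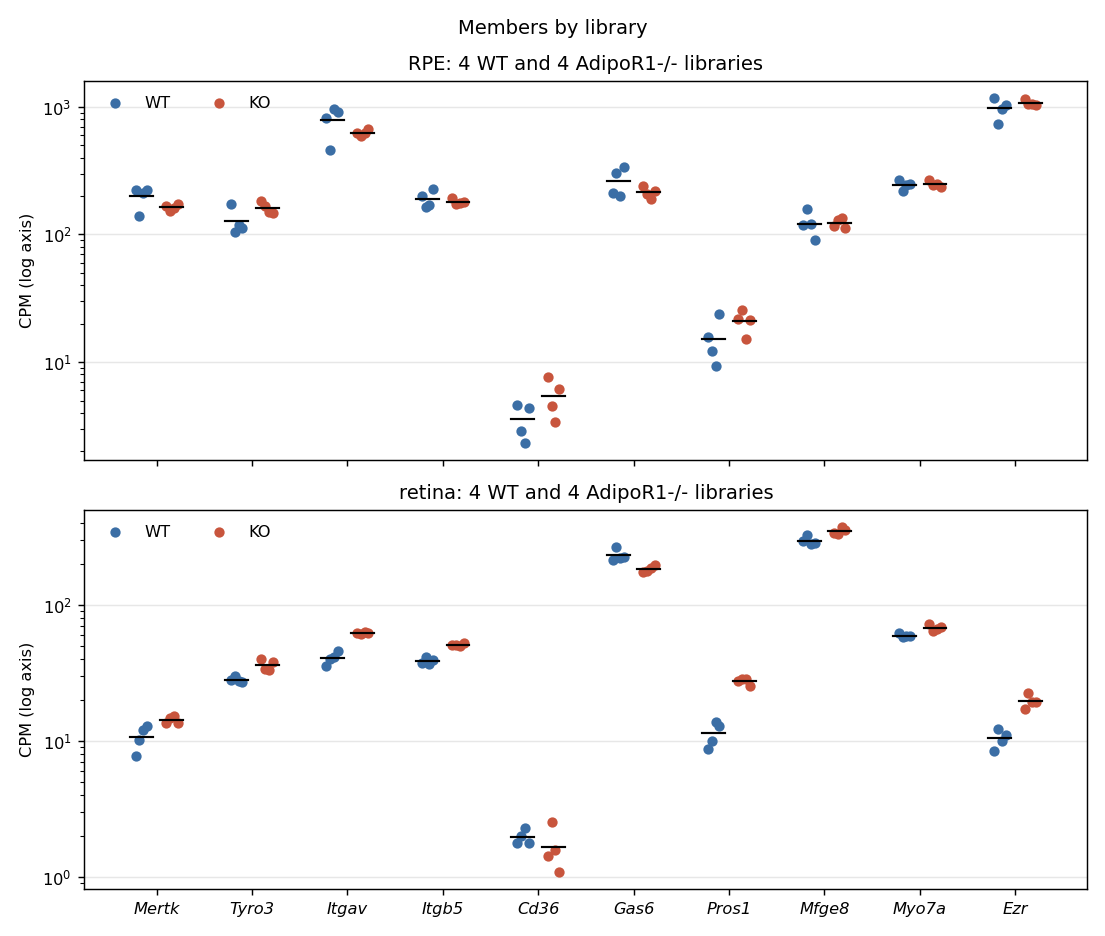
Levels of the 10 genes in each bulk library, as CPM on a log axis, in the RPE (upper panel) and the retina (lower panel). Blue points are 4 WT and red points 4 KO libraries, with a black line at each mean; the groups overlap for every gene in the RPE and, in the retina, only for Cd36.

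In the RPE, none of the 10 genes passed the test between KO and WT (edgeR quasi-likelihood test with Benjamini-Hochberg adjustment), where 6.73% of the 18989 genes tested did. None was a differentially expressed gene (DEG; adjusted p below 0.05 and at least 1.5-fold), against 4.97% of all genes. KO and WT libraries overlapped for each of the 10, whereas 15.2% of all genes did not overlap. Of the 10, 6 were higher and 4 lower in KO, with a median log2 fold change of 0.02 beside -0.02 over all genes. No member had an unadjusted p below 0.05, and DESeq2 and limma-voom also called 0 of them.

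Among the receptors, Mertk was at 223, 139, 212 and 221 CPM in the WT RPE libraries and at 168, 153, 161 and 173 CPM in the KO RPE libraries. Apart from WT replicate 2, each WT library was above every KO library. In KO the log2 fold change was -0.28 (95% interval -0.62 to 0.06; adjusted p = 0.33). Itgav showed the same arrangement, at 822, 460, 959 and 906 CPM in WT and 619, 588, 618 and 675 CPM in KO, with WT replicate 2 the lowest of all 8. Its log2 fold change was -0.33 (95% interval -0.82 to 0.15; adjusted p = 0.42). WT replicate 2 is the RPE library with the lowest RPE marker sum in CPM. Without it, Mertk was lower in KO by a log2 fold change of -0.41 (adjusted p = 0.0054) and Itgav by -0.51 (adjusted p = 0.0082), and both passed. Without both WT libraries high in rod markers, Mertk (-0.42, adjusted p = 0.012) and Itgav (-0.45, adjusted p = 0.015) also passed. Both of these fits leave out WT replicate 2, the lowest WT value of each gene, which raises the WT mean and narrows its spread. With replicates 1 and 4 only, neither passed (Mertk -0.37, adjusted p = 0.084; Itgav -0.41, adjusted p = 0.13). With the rod marker level as a covariate neither passed (Mertk -0.34, adjusted p = 0.14; Itgav -0.38, adjusted p = 0.31). Neither reached 1.5-fold in these fits.

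Itgb5, the partner subunit of Itgav in the binding integrin, was at 199, 163, 169 and 226 CPM in WT and 192, 174, 177 and 179 CPM in KO. The KO values lay inside the WT range, and the log2 fold change of -0.07 had a 95% interval of -0.31 to 0.18. Tyro3, a receptor kinase of the same family as Mertk, was at 173, 104, 118 and 113 CPM in the WT libraries and 181, 168, 151 and 146 CPM in the KO libraries. Here WT replicate 1 lay among the KO values and the other 3 WT libraries below all of them. Its log2 fold change was 0.35 (95% interval -0.03 to 0.73; adjusted p = 0.28). Without WT replicate 1, the library with the most fibroblast marker RNA, it was 0.54 and passed (adjusted p = 0.015). The part of that RNA was not tested. Cd36 was low, between 2.34 and 4.65 CPM in WT and between 3.40 and 7.59 CPM in KO, with a log2 fold change of 0.61 (95% interval -0.11 to 1.33; adjusted p = 0.32).

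The ligand genes did not pass either. Gas6 was at 213, 306, 199 and 336 CPM in WT and 242, 206, 189 and 218 CPM in KO (log2 fold change -0.30, 95% interval -0.72 to 0.11). Pros1 was at 15.7, 12.2, 9.30 and 23.7 CPM in WT and 21.9, 25.7, 15.3 and 21.3 CPM in KO (log2 fold change 0.47, 95% interval -0.20 to 1.14). The WT libraries spread over a wider range than the KO libraries for both. Mfge8 had means of 122 ± 27.6 CPM for WT and 123 ± 10.4 CPM for KO (SD, n = 4), and its log2 fold change was 0.01 (95% interval -0.35 to 0.37).

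Of the cytoskeletal genes, Myo7a encodes the myosin that carries ingested phagosomes and melanosomes in the apical RPE. It had the smallest standard error of the 10, at 265, 219, 245 and 247 CPM in WT and 268, 246, 247 and 236 CPM in KO. Its log2 fold change was 0.03 (95% interval -0.14 to 0.20), or between 0.909-fold and 1.15-fold. Ezr was at 1166.5, 737, 959 and 1034 CPM in WT and 1151, 1056, 1059 and 1033 CPM in KO. The log2 fold change of Ezr was 0.14 (95% interval -0.17 to 0.46). The lowest Ezr value was again that of WT replicate 2.

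In the retina, 9 of the 10 genes passed the test between KO and WT, where 30.9% of the 19381 genes tested did. Of these, 8 rose in KO and Gas6 fell. Pros1, Ezr and Itgav were DEGs, a class that held 10.0% of all genes. KO and WT libraries did not overlap for the same 9, beside 31.4% of all genes. The median log2 fold change of the 10 was 0.38, against 0.00 over all genes tested. Without TMM scaling the median of all genes shifted to 0.11 and all 9 still passed in the same directions. With both tissues in 1 fit, which share 1 estimate of the spread, 4 of the 10 passed and Mertk, Tyro3, Gas6, Mfge8 and Myo7a no longer did. In bulk tissue, fewer cells of a type and less RNA per cell cannot be told apart. Rod markers summed to between 54835 and 59846 CPM in WT and between 28216 and 32487 CPM in KO retina, Müller glia markers to between 3877 and 4168 CPM in WT and between 4786 and 5001 CPM in KO, and microglia markers as given above. Of the 10 Müller glia markers, 7 passed upward and 1 downward. Clu rose the most in CPM (391 to 443 CPM in WT and 1206 to 1411 CPM in KO). Crym, Aqp4, Slc1a3, Dkk3 and Sox9 were also higher in every KO library than in any WT library. Without Clu the sum was 3458 to 3725 CPM in WT and 3447 to 3724 CPM in KO. That sum includes Glul, which was lower in every KO library (1877 to 2014 CPM in WT and 1495 to 1728 CPM in KO). Its flat level therefore does not show that the other markers were unchanged. Fibroblast markers summed to 100 CPM in KO replicate 2, against 30.2 to 34.2 CPM in the other KO and 18.8 to 24.1 CPM in the WT retina libraries. Without KO replicate 2 all 9 genes still passed. The part of these cell classes in the 9 changes was not tested. The 10 RPE markers that are not also neuronal or glial markers (all but Rlbp1 and Otx2) summed to between 41.5 and 122 CPM in WT and between 77.3 and 161 CPM in KO retina. All 9 genes passed with the mean log2 level of the 12 RPE markers as a covariate.

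Among the ligands, Pros1 rose the most, from 8.78, 9.94, 13.8 and 12.9 CPM in WT to 27.6, 28.5, 28.4 and 25.1 CPM in KO retina. Its lowest KO library was above the highest WT library, and the fold change was 2.42 (95% interval 2.03 to 2.89; adjusted p = 2.47e-06). Gas6, the other MERTK ligand, went the opposite way, from 212, 266, 221 and 225 CPM in WT to 175, 177, 187 and 194 CPM in KO. Its log2 fold change was -0.34 (SE 0.06; adjusted p = 0.0014). Mfge8 rose from 295, 326, 279 and 282 CPM to 334, 333, 370 and 353 CPM, a log2 fold change of 0.23 (SE 0.06; adjusted p = 0.0062).

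Among the receptors, Itgav rose from 35.6, 39.7, 41.1 and 45.4 CPM in WT to 62.1, 61.3, 63.0 and 61.7 CPM in KO retina (1.53-fold, 95% interval 1.39 to 1.69; adjusted p = 6.65e-06). Itgb5 rose from 37.1, 41.2, 36.4 and 39.6 CPM to 50.4, 50.8, 49.8 and 52.1 CPM (1.32-fold, adjusted p = 5.76e-05). Both subunits of the binding integrin were therefore higher in all 4 KO libraries than in any WT library. Tyro3 rose 1.29-fold, from between 27.2 and 29.8 CPM to between 32.9 and 39.9 CPM (adjusted p = 0.0011). Mertk was at 7.76, 10.2, 11.9 and 12.8 CPM in WT and 13.5, 14.6, 15.2 and 13.4 CPM in KO retina, a 1.33-fold rise with a wide 95% interval of 1.10 to 1.60 (adjusted p = 0.024). The Mertk call was lost without WT replicate 2 (adjusted p = 0.051) or KO replicate 3 (adjusted p = 0.066). Cd36 was low, at 1.76 to 2.30 CPM in WT and 1.09 to 2.52 CPM in KO retina, and did not pass (log2 fold change -0.22, adjusted p = 0.49). Without KO replicate 2, its highest KO library, the log2 fold change was -0.49 and it did not pass either (adjusted p = 0.059).

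Of the cytoskeletal genes, Ezr rose from 8.47, 12.3, 9.95 and 11.1 CPM in WT to 17.0, 22.5, 19.3 and 19.4 CPM in KO retina (1.87-fold, 95% interval 1.58 to 2.21; adjusted p = 3.66e-05). Myo7a rose from between 57.5 and 61.9 CPM to between 63.6 and 72.2 CPM, a 1.14-fold change (adjusted p = 0.0085). The 2 groups of Myo7a values were close but did not overlap. Exons of Itgav share 634 bases, those of Gas6 34 bases and those of Ezr 4 bases with a gene on the opposite strand. The sources do not say whether reads were counted by strand.

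**Figure D2:**
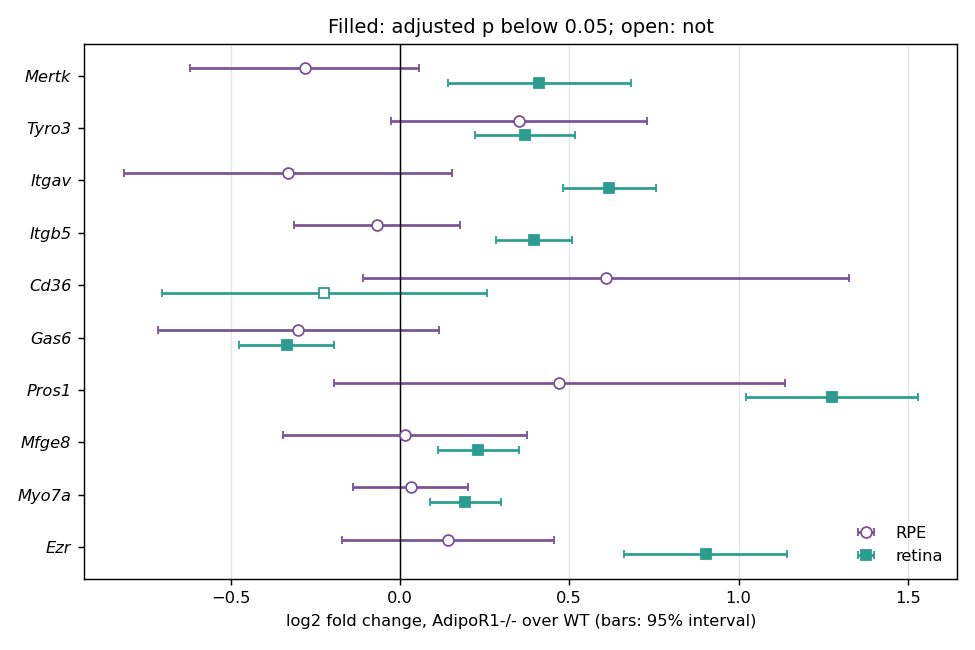
Log2 fold changes of KO over WT for the 10 genes in the RPE (purple circles) and the retina (green squares), with 95% intervals from edgeR; filled symbols have an adjusted p below 0.05. All 10 RPE intervals include 0, and 9 of the 10 retina intervals do not.

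The difference between tissues was tested as the interaction of genotype and tissue, which 8.84% of 21068 genes passed. This fit shares 1 estimate of the spread between tissues. Fitted alone, the RPE had a common coefficient of variation between libraries of 0.295 and the retina one of 0.0921. The interaction p-values do not allow for that difference. Itgav (-0.93 on the log2 scale, RPE minus retina, SE 0.24; adjusted p = 0.024), Ezr (-0.74, SE 0.19; adjusted p = 0.025) and Itgb5 (-0.44, SE 0.11; adjusted p = 0.019) passed. For all 3, the KO level relative to WT was lower in the RPE than in the retina. The Ezr call did not hold with the replicate number as a block (-0.74, adjusted p = 0.055), which left 2 genes, nor without WT retina replicate 1 or 3, KO retina replicate 2, or KO RPE replicate 2 or 4 (adjusted p between 0.051 and 0.057). The Itgav call did not hold without KO RPE replicate 2 (adjusted p = 0.051) or WT retina replicate 1 (adjusted p = 0.054). Mertk had an interaction of -0.67 (adjusted p = 0.069) and passed without WT RPE replicate 2 (-0.81, adjusted p = 0.0071) or WT retina replicate 4 (-0.77, adjusted p = 0.046). Pros1 (-0.77, adjusted p = 0.17) did not pass, although it rose in the retina and was not called in the RPE. Gas6 (0.06) and Tyro3 (0.01) had nearly equal fold changes in both tissues, with an SE of 0.20 and 0.18.

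Since Pros1, Itgav and Ezr were the DEGs that rose together in the retina, the 250 bases before their RefSeq start sites (GRCm38.p6) are shown, 5′ to 3′ on the strand of the gene. The regions are chr16:62854057-62854306 on the plus strand, chr2:83724147-83724396 on the plus strand and chr17:6782781-6783030 on the minus strand. Capitals mark matches to TTCNNNGAA, the palindrome that STAT factors bind, or to TGANTCA, the AP-1 motif, on either strand.
Pros1: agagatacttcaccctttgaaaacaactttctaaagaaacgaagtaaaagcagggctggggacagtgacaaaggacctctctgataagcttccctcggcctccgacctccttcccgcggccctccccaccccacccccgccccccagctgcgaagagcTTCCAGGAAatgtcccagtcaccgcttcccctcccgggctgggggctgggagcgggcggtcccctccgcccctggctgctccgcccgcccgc
Itgav: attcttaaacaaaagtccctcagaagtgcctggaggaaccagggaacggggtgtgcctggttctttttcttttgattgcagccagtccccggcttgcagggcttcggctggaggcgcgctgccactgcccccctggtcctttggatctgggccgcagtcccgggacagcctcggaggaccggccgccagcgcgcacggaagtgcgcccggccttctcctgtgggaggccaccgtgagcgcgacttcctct
Ezr: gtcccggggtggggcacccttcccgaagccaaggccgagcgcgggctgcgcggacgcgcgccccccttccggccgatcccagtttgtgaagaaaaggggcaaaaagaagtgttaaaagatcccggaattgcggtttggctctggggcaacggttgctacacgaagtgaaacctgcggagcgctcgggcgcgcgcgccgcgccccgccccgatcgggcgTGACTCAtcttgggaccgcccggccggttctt
The Pros1 promoter holds TTCCAGGAA starting 92 bases before the start site, a match to TTCNNNGAA, which 7.02% of 32851 promoters hold, and to its stricter form TTCCNGGAA, which 0.913% hold. The Ezr promoter holds TGACTCA starting 32 bases before the start site, and 6.75% of promoters hold TGANTCA. No other member promoter held either motif. CACGTG, the core of the lysosomal gene element bound by TFEB, was in none of the 11 promoters of the 10 genes and in 6.02% of all. The E-box CANNTG was in the promoters of 6 of the 10 genes and in 66.2% of all. The GC box GGGCGG was in those of 9 genes, all but Itgav, and in 32.7% of all. The CCAAT box was in that of Cd36 and in 33.8% of all promoters. All motifs were searched on both strands, and every match to CACGTG or TTCCNGGAA is also one to the looser form. A match of letters is a description and does not show that a factor binds there.

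The rest of the pathway was followed in 4 lists. In the RPE, 3 of 11 tested genes for other recognition receptors, ligands and checkpoints passed, beside 6.73% of all genes. Thbs1, whose product thrombospondin-1 bridges cells to CD36 and integrins, was 1117 ± 219 CPM in WT and 2346 ± 173 CPM in KO (SD, n = 4), a rise of 1.07 on the log2 scale (adjusted p = 0.0052). Itgb3, an alternative partner of the αv subunit, fell from 10.5 ± 1.92 to 5.59 ± 0.671 CPM (-0.92, adjusted p = 0.014). Scarb1, a scavenger receptor for lipoproteins and phosphatidylserine, fell from 188 ± 8.87 to 130 ± 4.92 CPM (-0.54, adjusted p = 0.0016). Thus a scavenger receptor and an integrin subunit outside the 10 genes fell in KO RPE while a ligand rose. Of 20 genes for engulfment signaling and the apical cytoskeleton, 1 passed, the tetraspanin gene Cd81 (466 ± 52.3 to 601 ± 9.59 CPM; 0.37, adjusted p = 0.046). Of 17 genes for phagosome transport and degradation, the cathepsin genes Ctss (2.17, adjusted p = 0.0018) and Ctsb (0.44, adjusted p = 0.044) rose. Ctss is also one of the microglia markers, of which 10 of 12 rose, and it went from 9.60 ± 2.76 to 43.0 ± 6.55 CPM. The part of microglia in this rise was not tested. Of 11 genes for LC3-associated phagocytosis, Map1lc3a, an LC3 gene, rose from 198 ± 25.8 to 299 ± 14.4 CPM (0.59, adjusted p = 0.012). The counts of 1 of 20, 2 of 17 and 1 of 11 are each within 1 gene of what 6.73% of the list would give. The medians of the 4 lists were between -0.04 and 0.07 on the log2 scale.

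In the retina, 10 of 11, 9 of 20, 9 of 17 and 3 of 11 genes of the same lists passed, beside 30.9% of all genes. Of the recognition list, 7 rose and 3 fell, with a median log2 fold change of 0.57. Axl, the third kinase of the family of Mertk and Tyro3, rose from 16.4 ± 1.01 to 36.8 ± 3.08 CPM (1.17, adjusted p = 5.61e-08; SD, n = 4). Cd47, a signal against engulfment, rose from 79.1 ± 4.38 to 133 ± 3.22 CPM (0.75, adjusted p = 3.15e-08). Scarb1 (-0.45) and Tub (-0.30), a bridging ligand of MERTK that photoreceptors also express, fell. For engulfment, Msn, which encodes the ezrin relative moesin, rose from 32.8 ± 1.36 to 73.7 ± 4.98 CPM (1.17, adjusted p = 5.40e-09), and Myh9 (0.48), Dock1 (0.61) and Cd81 (0.24) rose too. For degradation, Ctss (2.22) and Ctsd (0.46), a lysosomal protease that digests rhodopsin, rose, while Mreg (-0.45) and Myrip (-0.41), genes of organelle transport, fell. The share among LC3 genes was near that of all genes. There, Cybb (2.07), a phagocyte oxidase subunit, and Atg16l1 (0.24) rose and Atg12 fell (-0.22). These lists hold genes of macrophages, and the retina libraries also differed in microglia markers as given above, whose part was not tested.

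The single-cell libraries show which cells held these transcripts. The 6 libraries held 26764 cells and between 5172257 and 25439885 UMIs (unique molecular identifiers, 1 per captured transcript) each, with a median of 1349 to 4357 UMIs per cell. The P30 libraries were the shallowest and were sequenced on another instrument, so that age and instrument cannot be told apart. Between 0 and 15 barcodes were shared by any pair of libraries. Cells were grouped into 39 clusters without using any of the pathway genes, and 34 were named from marker genes. The other clusters, with 1512 cells, stayed unnamed. In a cluster of 65 cells, 10 of 12 RPE markers were both at least 2-fold over the rest and detected in at least 10% of its cells, among them Ttr, Rgr, Rdh5 and Rpe65, as were 4 melanocyte markers, with Rpe65 at 1590 CPM against 0.126 CPM in all other cells. These RPE-like cells came from every library, 29 of them from WT and 36 from KO mice. The labels name the retina alone as the tissue of these libraries and the study names the RPE as well, so whether these cells were taken on purpose is unknown.

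Over all cells, Müller glia-like cells (2119 cells) held most of the UMIs of Mertk (73.2% of 814), Pros1 (65.8% of 1357), Mfge8 (59.4% of 17506) and Itgav (54.7% of 3340). These are shares of the UMIs captured and need not be those in the tissue. Rod-like cells had a median of 1085 UMIs and Müller glia-like cells one of 4434 UMIs. Müller glia are the radial glia of the retina and can also take up debris. Mertk was nearly absent from neurons, with 1 UMI in 7967 rod-like cells, 0 in 1561 cone-like cells, which allows up to 3 UMIs, and 3 in 6617 bipolar-like cells. By level, Mertk was highest in microglia-like cells (142 CPM), followed by Müller glia-like (58.7 CPM) and pericyte-like cells (43.7 CPM). The 65 RPE-like cells held 5 Mertk UMIs (29.6 CPM), too few to place them in this order. In bulk WT libraries Mertk was 23.1-fold higher in the RPE than in the retina. Itgb5 was highest in microglia-like cells (443 CPM) and in horizontal-like cells (336 CPM), which held 31.9% of its UMIs in 173 cells. Cd36 was found mainly in 70 astrocyte-like cells, with 125 of its 163 UMIs (184 CPM). It was found in none of the 65 RPE-like cells, which allows up to 3 UMIs. Gas6 UMIs were found in all 13 named classes, with the largest shares in amacrine-like (38.0% of 9966) and bipolar-like cells (15.7%). Its level was 161 CPM in fibroblast-like cells (17 UMIs), 158 CPM in microglia-like and 148 CPM in cone-like cells. It was 115 CPM in rod-like, 110 CPM in amacrine-like and 39.8 CPM in Müller glia-like cells. Rod marker UMIs were also found in other classes, and how many of the Gas6 UMIs were free RNA was not tested. Mfge8 was high in pericyte-like (1200 CPM) and Müller glia-like cells (1020 CPM), and among neurons in cone-like (379 CPM) and rod-like cells (221 CPM), with 6.00 CPM in amacrine-like and 11.7 CPM in bipolar-like cells.

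**Figure D3:**
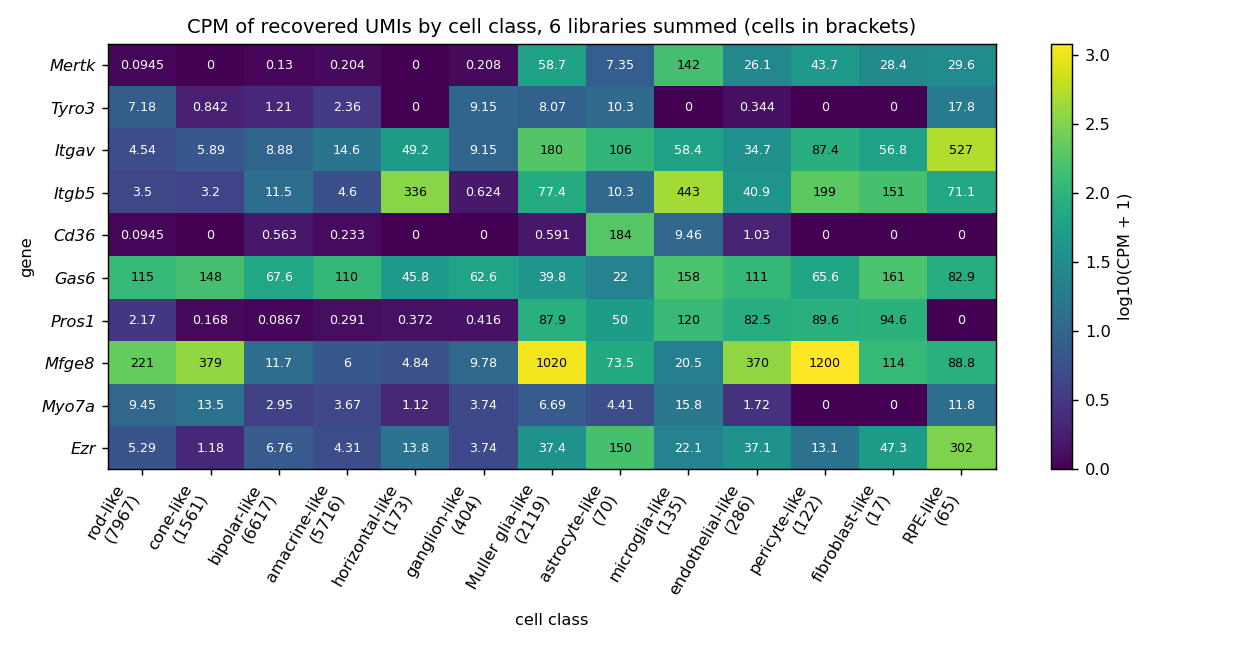
Level of the 10 genes (rows) in 13 named cell classes (columns, cells in brackets), as CPM of recovered UMIs summed over 6 libraries; color is log10(CPM + 1). Itgav (527 CPM) and Ezr (302 CPM) were highest in RPE-like cells, Mertk and Itgb5 in microglia-like cells. Pros1 was 0 in RPE-like cells, which allows up to 3 UMIs (17.8 CPM).

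Itgav (527 CPM) and Ezr (302 CPM) were higher in the RPE-like cells than in the other 12 named classes, while Mertk was at 29.6 CPM from 5 UMIs and Pros1 and Cd36 at 0 UMIs. A count of 0 allows up to 3 UMIs, which is 17.8 CPM in these cells. The bulk WT RPE means were 15.2 CPM for Pros1 and 3.56 CPM for Cd36, but bulk CPM are of reads and these are of UMIs. The scales differed: Mertk was at 199 CPM in bulk WT RPE and 29.6 CPM in the RPE-like cells of both genotypes. Tyro3 was at 127 and 17.8 CPM and Myo7a at 244 and 11.8 CPM. With so few cells, the zeros do not show absence. Between genotypes these cells are too few for a test, and exact Poisson intervals cover counting error only. Itgav was at 408 CPM (95% interval 288 to 563) in 29 WT and 665 CPM (496 to 872) in 36 KO cells. By library, however, it was 449, 891 and 37.1 CPM in WT at P19, P25 and P30 and 1060, 361 and 169 CPM in KO, so the genotypes overlapped. Ezr was at 309 CPM (205 to 447) in WT and 294 CPM (186 to 441) in KO cells. Mertk had 2 UMIs in WT and 3 in KO cells, and a difference was not detectable at this depth. Rod markers summed to between 3246 and 24060 CPM in the RPE-like cells of the 6 libraries, a measure of RNA from other cells.

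KO and WT were compared over the 3 ages in Müller glia-like and rod-like cells, on UMIs summed per library and with age in the model (limma-trend, 6 libraries). With 1 library per genotype and age, these p-values rest on how the difference varied between ages and not on replicates. Müller glia-like cells numbered between 129 and 589 per library, most of them in cluster 5 at P19 and P25 and in cluster 16 at P30 in both genotypes. Of the 7 members tested in them, Pros1 passed, beside 1.54% of 10358 genes. It was at 68.3, 50.3 and 31.6 CPM in WT and at 121, 96.1 and 79.9 CPM in KO cells in order of age. Thus it was higher in KO at 3 of 3 ages, by a log2 fold change of 1.14 (95% interval 0.72 to 1.55; adjusted p = 0.037). The WT value at P30 rests on 8 UMIs. Bipolar-like cells held Pros1 at 0.0867 CPM, from 2 UMIs in 6617 cells. With a prior count of 0.5 in place of 2, Pros1 no longer passed (adjusted p = 0.058), and with edgeR on the UMIs it did (1.03, adjusted p = 7.07e-04). At P19 and P25 alone, which shared an instrument, the log2 fold change was 0.97 (adjusted p = 0.010), and P30 alone gives no test. The microglia marker sum in these cells was between 28.3 and 31.6 CPM in WT and between 29.8 and 55.3 CPM in KO libraries.

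Other members differed less in Müller glia-like cells. Gas6 was at 36.1, 23.4 and 19.7 CPM in WT and 29.4, 55.4 and 51.2 CPM in KO at the 3 ages, which is higher at P25 and P30 but not at P19 (log2 fold change 0.87, adjusted p = 0.30). Without P19 it passed (1.36, adjusted p = 0.0049). Rod markers in these cells summed to 1614, 1503 and 5442 CPM in WT and 1513, 5538 and 6336 CPM in KO, also higher in KO at P25 and P30, and rods hold Gas6. The part of rod RNA was not tested. Itgav was at 210, 155 and 94.7 CPM in WT and 210, 172 and 131 CPM in KO (0.33, 95% interval -0.01 to 0.67; adjusted p = 0.36). Mertk was at 72.3, 64.9 and 19.7 CPM in WT and 74.7, 47.1 and 22.5 CPM in KO (0.05, 95% interval -0.45 to 0.54). Mfge8 (-0.09), Itgb5 (-0.01) and Ezr (-0.05) did not pass either.

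In rod-like cells, 4 members were abundant enough to be tested, and Mfge8 passed, beside 7.29% of 9601 genes. It was at 124, 119 and 218 CPM in WT and at 261, 228 and 282 CPM in KO cells at P19, P25 and P30. The lowest KO library was above the highest WT library, and the log2 fold change was 0.77 (95% interval 0.47 to 1.08; adjusted p = 0.0044). The call held in all 6 alternatives, with log2 fold changes between 0.66 and 0.97. Müller glia markers summed to 154, 165 and 551 CPM in WT and 175, 241 and 362 CPM in KO rod-like cells at the 3 ages, against 24980 to 28840 CPM in Müller glia-like cells. This sum was higher in KO at P19 and P25 and lower at P30, and its part in the Mfge8 difference was not tested. KO and WT rods fell mostly in different clusters. Most KO rods at P19 and P25 were in cluster 0 and at P30 in cluster 1, and most WT rods at P19 and P25 were in cluster 3 and at P30 in cluster 6. Gas6 (0.01) and Tyro3 (0.24) did not pass in rods, nor did Myo7a, whose product also lines the connecting cilium (0.58, 95% interval -0.11 to 1.28; adjusted p = 0.32), although it was higher in KO at 3 of 3 ages.

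**Figure D4:**
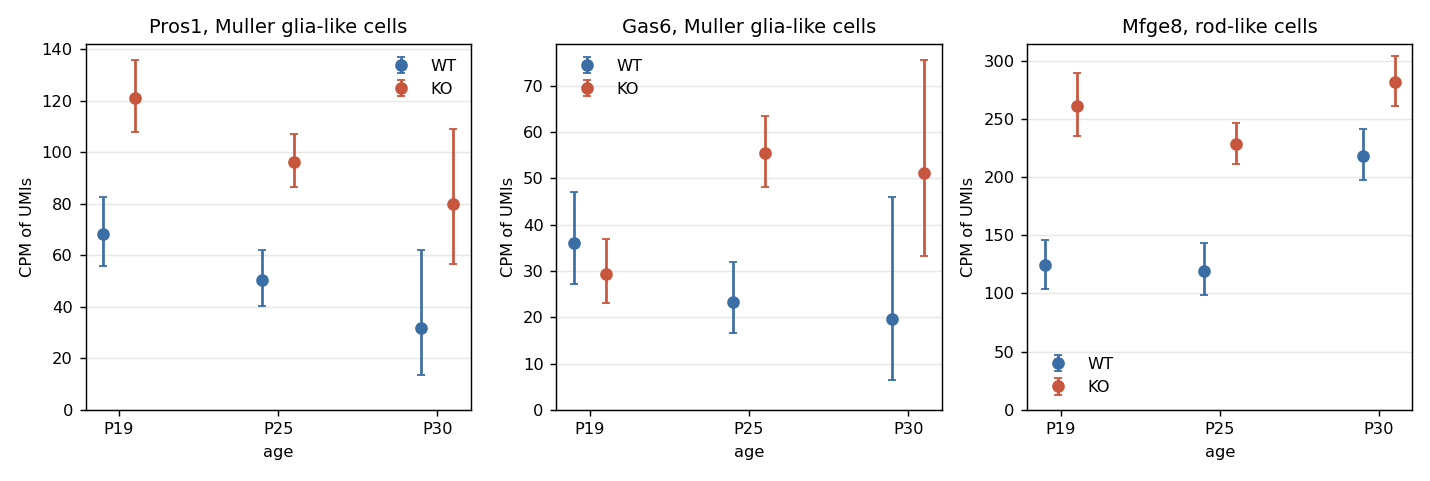
Levels of Pros1 and Gas6 in Müller glia-like cells and Mfge8 in rod-like cells at P19, P25 and P30, as CPM of UMIs with exact Poisson 95% intervals that cover counting error only; blue is WT and red KO, 1 library each. Pros1 and Mfge8 lie higher in KO at every age, Gas6 at P25 and P30.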

How the data were processed

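Bulk retina and RPE libraries (n = 4 mice per genotype and tissue at P30) and 6 single-cell libraries were grouped by the labels. For bulk RNA-Seq, the authors deposited raw read counts per gene; the aligner and counter were not named in any source used. For single cells, made with Cell Ranger 2.1 per the labels, the authors deposited natural log values. After 1 inverse step each cell summed to 10000, and after a further inverse step 99.99998% of the values were whole within 0.01, with 7 cells holding values that were not. These recovered UMIs were used. The submitters' processing notes name the build mm10, and GENCODE M21 (GRCm38) gave symbols for 53706 of 53801 identifiers and exon lengths.

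Bulk counts were filtered with edgeR's default, scaled with TMM within each tissue and tested with the quasi-likelihood test and Benjamini-Hochberg adjustment (edgeR 4.0.16, limma 3.58.1, DESeq2 1.42.0, R 4.3.3). Fold changes come with 95% intervals. Clustering used 2000 variable genes, 30 principal components, 15 nearest neighbors and the Leiden method at resolution 1.0 (leidenalg 0.10.2), leaving out all pathway genes. A cluster was named where at least 3 markers of a class were 2-fold above the rest and no other class had more markers among its 10 leading genes; a cluster led by Optc stayed unnamed. This naming rule was set after the clusters had been seen. No doublet caller was used. Sums per library and class went into limma-trend as log2 CPM (prior count 2), with age as a covariate. Tests were checked on simulated data. Bulk p-values measure the spread between replicate libraries. With 1 single-cell library per genotype and age, single-cell p-values rest on how the KO to WT difference varied between ages. They do not measure a spread between replicates. Intervals on UMIs cover counting error only.

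The members, lists and markers were chosen with earlier results of these data known. Named list genes are, per list and tissue, up to 4 with the smallest p among those that passed. Within each tissue, every same-numbered WT and KO pair deviated together over 17468 genes (correlation 0.40 to 0.73 in the RPE and 0.18 to 0.30 in the retina). However, only 1 of 4 WT libraries in the RPE and 2 of 4 in the retina correlated best with the KO library of their own number. In the RPE, replicates 2 and 3 of both genotypes also had the higher rod marker sums. Between the tissues of 1 genotype the correlation was -0.0036 to 0.28. There, all 4 WT retina libraries correlated best with the WT RPE library of their own number, but only 1 of 4 KO retina libraries did so. Whether the numbers mark pairs was not tested. The main tissue and interaction fits treated all bulk libraries as independent, and a block on replicate number was tried. Other alternatives were other scalings, tests and filters, a rod marker covariate, both tissues in 1 fit and leaving out each library or age. Leaving out both WT RPE libraries high in rod markers, using RPE replicates 1 and 4 only, and the RPE marker covariate in the retina were added after the data were seen.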

Additional observations from a re-analysis of the deposited data

Results flagged for a closer look

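Mertk in WT RPE is listed because the lowest of the 4 libraries, WT replicate 2 at 139.02 CPM, lay far from the other 3, which were at 212 to 223 CPM. Of 40 groups of 4 libraries examined for the 10 genes, 1 had such a gap, and chance alone gives about 1 in 20. That library also had the lowest RPE marker sum (42067 CPM) and the second highest rod marker sum (17574 CPM) of the RPE libraries. With it, Mertk did not pass in the RPE (log2 fold change -0.28), and without it Mertk did (-0.41, adjusted p = 0.0054). The part of its composition in the Mertk value was not tested.

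Itgav, Itgb5 and Ezr are listed because the difference between KO and WT was not the same in the RPE and the retina by the interaction test. The RPE minus retina difference of log2 fold changes was -0.93 for Itgav, -0.44 for Itgb5 and -0.74 for Ezr. Itgav was at -0.33 in the RPE and 0.62 in the retina, Itgb5 at -0.07 and 0.40, and Ezr at 0.14 and 0.90. In WT mice these genes were 24.2-fold, 6.06-fold and 115-fold higher in the RPE than in the retina.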

How the results depend on the processing

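In the RPE, the count of members that passed was 0 in every alternative except those that follow. It was between 0 and 2 when 1 replicate was left out (1 without WT replicate 1, which was Tyro3, and 2 without WT replicate 2, Mertk and Itgav), and 2 without both WT libraries high in rod markers. In that last fit the log2 fold changes of Myo7a (-0.020) and Ezr (-0.016) turned negative, as they did with replicates 1 and 4 only (Myo7a -0.014, Ezr -0.0016). Leaving out single libraries gave log2 fold changes of -0.0058 to 0.076 for Myo7a, -0.10 to 0.17 for Mfge8 and -0.12 to 0.028 for Itgb5. In the retina, the count that passed was 4 with both tissues in 1 fit and between 8 and 9 with 1 replicate left out, and the count of DEGs was 9 with no minimum fold change and between 2 and 3 with 1 replicate left out. Without TMM the interaction count was 5 (Mertk and Myo7a passed) and the interaction of Tyro3 (-0.12) and Gas6 (-0.070) turned negative; leaving out single libraries gave between 1 and 4 members, with Tyro3 between -0.080 and 0.18 and Gas6 between -0.041 and 0.18. A block on replicate number left 2 members past the interaction test, since Ezr (-0.74) then had an adjusted p of 0.055, and the block changed no other call. In Müller glia-like cells, the count was 0 with a prior count of 0.5 and 2 without age P19. There Mertk turned to -0.081 with edgeR, -0.041 without P19 and -0.11 without P30. Itgb5 turned to 0.10 without the cells with the most UMIs and 0.078 without P19. Mfge8 was 0.087 without P30. Ezr turned to 0.079 with edgeR, 0.055 without the cells with the most UMIs and 0.13 without P30. In rod-like cells, Tyro3 turned to -0.032 with edgeR and -0.30 without P30, and Gas6 to -0.033 with edgeR, -0.018 without the cells with the most UMIs, -0.13 without P19 and -0.11 without P25. None of the genes that changed sign in a comparison had passed its test there. The cause of these shifts was not tested. The count in the WT tissue comparison was 8 without TMM. In the RPE, 1278 of all genes passed with edgeR, 2701 with DESeq2, 2863 with both tissues in 1 fit, 2130 with the rod marker covariate, 208 with replicates 1 and 4 only, and 645 to 2130 with 1 replicate left out; in the retina 5990 did, and 2731 with both tissues in 1 fit. Cd36 had the fewest bulk counts of the members, 81 to 210 per RPE and 26 to 84 per retina library, and Mertk rested on 5 UMIs in RPE-like cells.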

Other observations

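Microglia-like cells numbered 29 in the WT and 106 in the KO libraries. Over all ages, their WT and KO levels were 479 and 437 CPM for Itgb5, 183 and 134 CPM for Mertk, 183 and 108 CPM for Pros1, and 173 and 155 CPM for Gas6. Itgav had 12 UMIs in the WT cells (122 CPM) and 25 UMIs in the KO cells (46.7 CPM). No Tyro3 UMI was found in these cells. With 5 to 17 such cells per WT library, no test was made.

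Pros1 was found in rod-like cells with 1, 0 and 0 UMIs in WT and 6, 9 and 7 UMIs in KO at P19, P25 and P30, too few to be tested. Its level there, at most 4.27 CPM, was far below that in Müller glia-like cells of the same libraries.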
